A study of Oryza sativa with 24 samples.

Results

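Anthers of the rice line PL9 were compared with anthers of the rice cultivar Sasanishiki after both had stood at 12 °C for 4 days. The members of the comparison are the 3 PL9 and 3 Sasanishiki libraries labelled as cold-treated, 6 of 24 libraries in the series, and the genes measured in them. The RNA came from anthers at the booting stage, when the young panicle is still inside the leaf sheath, and plants entered the cold at the early microspore stage. The groups set beside them are the 3 untreated PL9 and the 3 untreated Sasanishiki libraries, from plants grown in a greenhouse set to 25 °C in the day and 19 °C at night, and the cold libraries of the other lines, Nipponbare and Lambayeque1. All groups share the pot culture of 20 plants to a pot with the main stem only, and the labels do not say how PL9 is related to the other lines. The library titles number 3 libraries a group while the series text speaks of 2 replicates, and the n of 3 used here is that of the titles. Nothing says that the libraries came from separate plants. A p-value sets the difference between groups against the spread of libraries within groups, and that may be technical spread. This spread was estimated over all 8 groups together, so it is not that of the PL9 cold libraries alone.

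The files give 1 abundance value per gene and library, headed TPM, a level corrected for transcript length. Of 37910 gene identifiers, 32511 stood on 1 row of the files and were used, and 22495 of these reached a value of 1 in at least 3 of the 24 libraries and were tested. All differences below are PL9 minus Sasanishiki on the log2(value + 1) scale, on which changes of low genes come out too small, and a gene is called when its limma p-value, adjusted by Benjamini-Hochberg over all tested genes, is under 0.05. The test after cold and the test of the response were also fitted without PL9 library 2, which stood apart in its group.

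Cold at the young microspore stage is a known cause of pollen sterility in rice. The tapetum, the innermost layer of the anther wall, feeds the microspores and makes sporopollenin, the polymer of the outer pollen wall. Gibberellin is needed for tapetum function and pollen wall formation, and abscisic acid, sugar supply and cold-induced transcription factors of the DREB family are all studied in cold-treated rice anthers. In a bulk sample of anthers, fewer cells of a type and less RNA per cell cannot be told apart.

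Within the groups, the log2 values of the PL9 cold libraries correlated at 0.906 between libraries 1 and 2, 0.953 between 2 and 3 and 0.970 between 1 and 3. Those of Sasanishiki correlated at 0.969 to 0.986. PL9 library 2 was the highest of the 6 cold libraries by at least 2-fold, on the log2(value + 1) scale, at 880 tested genes. PL9 library 1 was the lowest by that margin at 429 genes, and PL9 library 2 at another 429. No Sasanishiki library stood out in this way at more than 227 genes. Sequencing depth is unknown, because read counts are not among the values. The labelled tissue was checked with flower organ genes. The summed level of 3 stamen identity genes was 2192 to 2397 in the PL9 libraries and 1684 to 2024 in the Sasanishiki libraries. That of 4 carpel and outer floret markers, which a dissected anther can carry along, was 3.34 to 5.77 in PL9 and 7.95 to 11.8 in Sasanishiki. The groups were apart at all 3 stamen genes, with PL9 higher, and at 1 of the 4 markers, MADS6. Over all tested genes the groups were apart at 32.1%. PL9 library 3 was the highest of the 6 libraries at 2 of the markers and Sasanishiki library 1 at 2. The defining carpel gene DL was at most 0.575 in PL9 and at most 0.325 in Sasanishiki.

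The lines differed at a large number of genes after cold. Of 22495 genes, 2356 were higher in PL9 (10.5%) and 1747 were lower (7.77%), together 4103 genes or 18.2%. At 2648 genes (11.8%) the difference was at least 2-fold, 1620 of them higher in PL9 (7.2%) and 1028 lower (4.57%). Without PL9 library 2, 3740 genes were called (16.6%), 2087 higher (9.28%) and 1653 lower (7.35%). Of the 4103 genes, 3229 were called in both fits (14.4% of those tested), 1911 higher (8.5%) and 1318 lower (5.86%), none with the opposite sign, and 874 were lost without that library. The 3 PL9 values lay wholly above or wholly below the 3 Sasanishiki values at 32.1% of all tested genes, 17.4% above and 14.8% below. The median difference over all tested genes was -0.0005, and the median size of a called difference was 1.27. With quantile normalization the called genes split into 2250 higher and 2004 lower, a share of 52.9% higher against 57.4% as deposited.

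Most of this difference was also measured in untreated anthers, in a comparison that shares no library with the cold comparison. There 5241 genes (23.3%) were called between PL9 and Sasanishiki, 2893 higher in PL9 (12.9%) and 2348 lower (10.4%). Of the 4103 genes called after cold, 2655 were called in the same direction in untreated anthers, 64.7% of the cold calls and 50.7% of the untreated calls. Another 30 were called in the opposite direction. The 2 tests came from the same fit of all 24 libraries and share each gene's estimate of spread, so they are not independent. With each comparison fitted on its own 6 libraries, 1884 of 3060 cold calls (61.6%) were called in the same direction untreated. Of the 2338 genes called after cold with and without PL9 library 2 and differing at least 2-fold, 1900 (81.3%) were called in the same direction untreated. The 1418 genes called after cold and not called untreated had the same sign untreated in 1107 cases. The difference itself, that is the cold response of PL9 minus the cold response of Sasanishiki, passed the test at 74 of these 1418 genes. So for the other 1344 no difference between the treatments was shown.

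**Figure D1:**
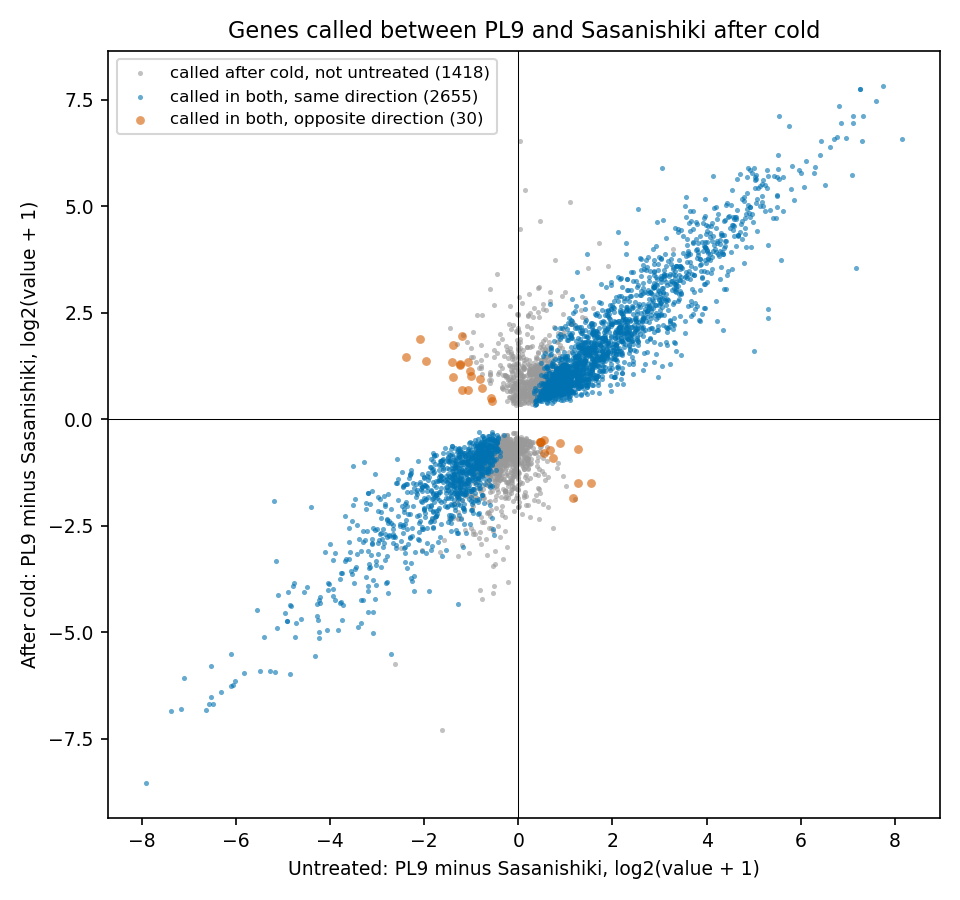
Difference between PL9 and Sasanishiki after cold (vertical axis) against the same difference in untreated anthers (horizontal axis), both in log2(value + 1) units, for the 4103 genes called after cold. Each point is a gene, and 2655 points called in both comparisons lie along the diagonal while 30 lie where the signs are opposite.

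A set of genes was near 0 in a whole line. The counts of such genes were made over all 32511 identifiers on 1 row, not over the 22495 tested genes. After cold, 370 genes were under 1 in all Sasanishiki libraries and at least 5 in all PL9 libraries, and 111 genes were under 1 in all PL9 libraries and at least 5 in all Sasanishiki libraries. Of the 370, 187 were listed at exactly 0 in the 3 Sasanishiki libraries, and of the 111, 46 were listed at exactly 0 in the 3 PL9 libraries. The same limits were met in untreated anthers by 282 of the 370 and by 74 of the 111. Under stricter limits, under 0.5 and at least 10, 196 and 57 genes were counted. Without PL9 library 2 the counts were 403 and 131.

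Os11g0272800 had 171, 176 and 177 in the PL9 libraries after cold and was listed at 0 in every Sasanishiki library. Os07g0136500 had 221, 237 and 255 in PL9, against 0, 0 and 0.15 in Sasanishiki. Both groups lay far apart, and the untreated libraries showed the same, with 171 to 238 for Os11g0272800 in PL9 and 0 in Sasanishiki. The pair Os12g0575300 and Os12g0575400 had identical values in all 24 libraries, 137, 356 and 219 in PL9 against 0, 0.11 and 0 in Sasanishiki, so the 2 identifiers cannot be told apart. In the other direction, Os04g0604500 had 0, 0.21 and 0 in PL9, against 383, 406 and 400 in Sasanishiki. Os01g0149400 was listed at 0 in every PL9 library and had 122, 109 and 114 in Sasanishiki. Os04g0251825 and Os06g0653300 were likewise listed at 0 in PL9, against 78.8 to 126 and 86.4 to 117 in Sasanishiki. Os09g0129450 had 0, 0 and 2.65 in PL9, against 175, 150 and 199 in Sasanishiki. The files pair none of these identifiers with a name.

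At such genes the other lines mostly stood with PL9. Of the 370 genes near 0 in Sasanishiki, 297 were at least 5 in all Nipponbare and all Lambayeque1 cold libraries, and 3 were under 1 in all of them. Of the 111 genes near 0 in PL9, 64 were under 1 in all Nipponbare and all Lambayeque1 cold libraries, and 11 were at least 5 in all of them. Os11g0272800 averaged 219 ± 37.8 in Nipponbare and 255 ± 15.9 in Lambayeque1 (SD, n = 3 each). Os01g0149400 was an exception on the other side, with 105 ± 60.4 in Nipponbare and 112 ± 21.6 in Lambayeque1 (SD, n = 3 each) although PL9 was at 0. Counted in the same way between other lines after cold, Sasanishiki was near 0 at 437 genes measured in Nipponbare and at 462 measured in Lambayeque1, while PL9 was near 0 at 55 and 81 such genes. In untreated anthers these counts were 462 and 414 for Sasanishiki and 211 and 107 for PL9. At the genes called in both fits and at least 2-fold, the other lines also mostly stood with PL9. Nipponbare was nearer to PL9 than to Sasanishiki after cold at 1282 of the 1443 genes higher in PL9 (88.8%) and at 740 of the 895 genes lower in PL9 (82.7%). Lambayeque1 was nearer to PL9 at 1287 (89.2%) and 737 (82.3%) of them. At the same genes in untreated anthers, the shares were 84.8% and 71.8% for Nipponbare and 87.3% and 77.3% for Lambayeque1. These shares are descriptions, since the genes were chosen by the PL9 and Sasanishiki values. IRGSP-1.0, the build named in the submitters' processing notes, is a Nipponbare sequence, and whether reads of genes that differ from it in sequence were lost in Sasanishiki or PL9 was not tested.

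**Figure D2:**
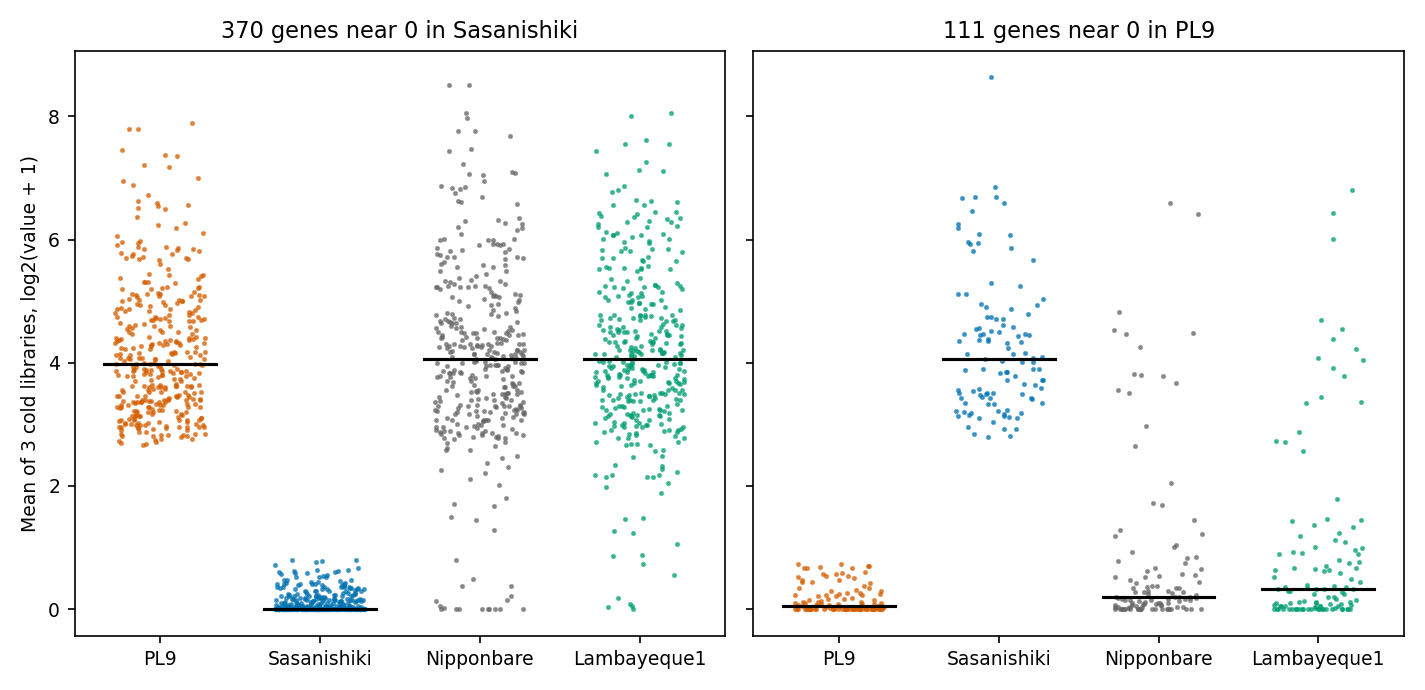
Mean level of 3 cold libraries in log2(value + 1) in each of 4 lines, for 370 genes near 0 in Sasanishiki (left) and 111 genes near 0 in PL9 (right). Each point is a gene and the bars are medians. At the left set the medians were 3.99 in PL9 and 0 in Sasanishiki, with 4.06 in Nipponbare and 4.06 in Lambayeque1.

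In 43 lists of genes with known roles, 258 members were tested, of which 20 were higher in PL9 and 10 lower, 11.6% against 18.2% of all tested genes. In both fits 11 were higher and 7 lower, 6.98% against 14.4% of all tested genes. All 18 are drawn in the plot of their values by library. GS3, GW5, SBE3, SODB, ANS, GA20OX4 and DCL3B carry names that the reference table does not hold, and their identity rests on the identifier.

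**Figure D3:**
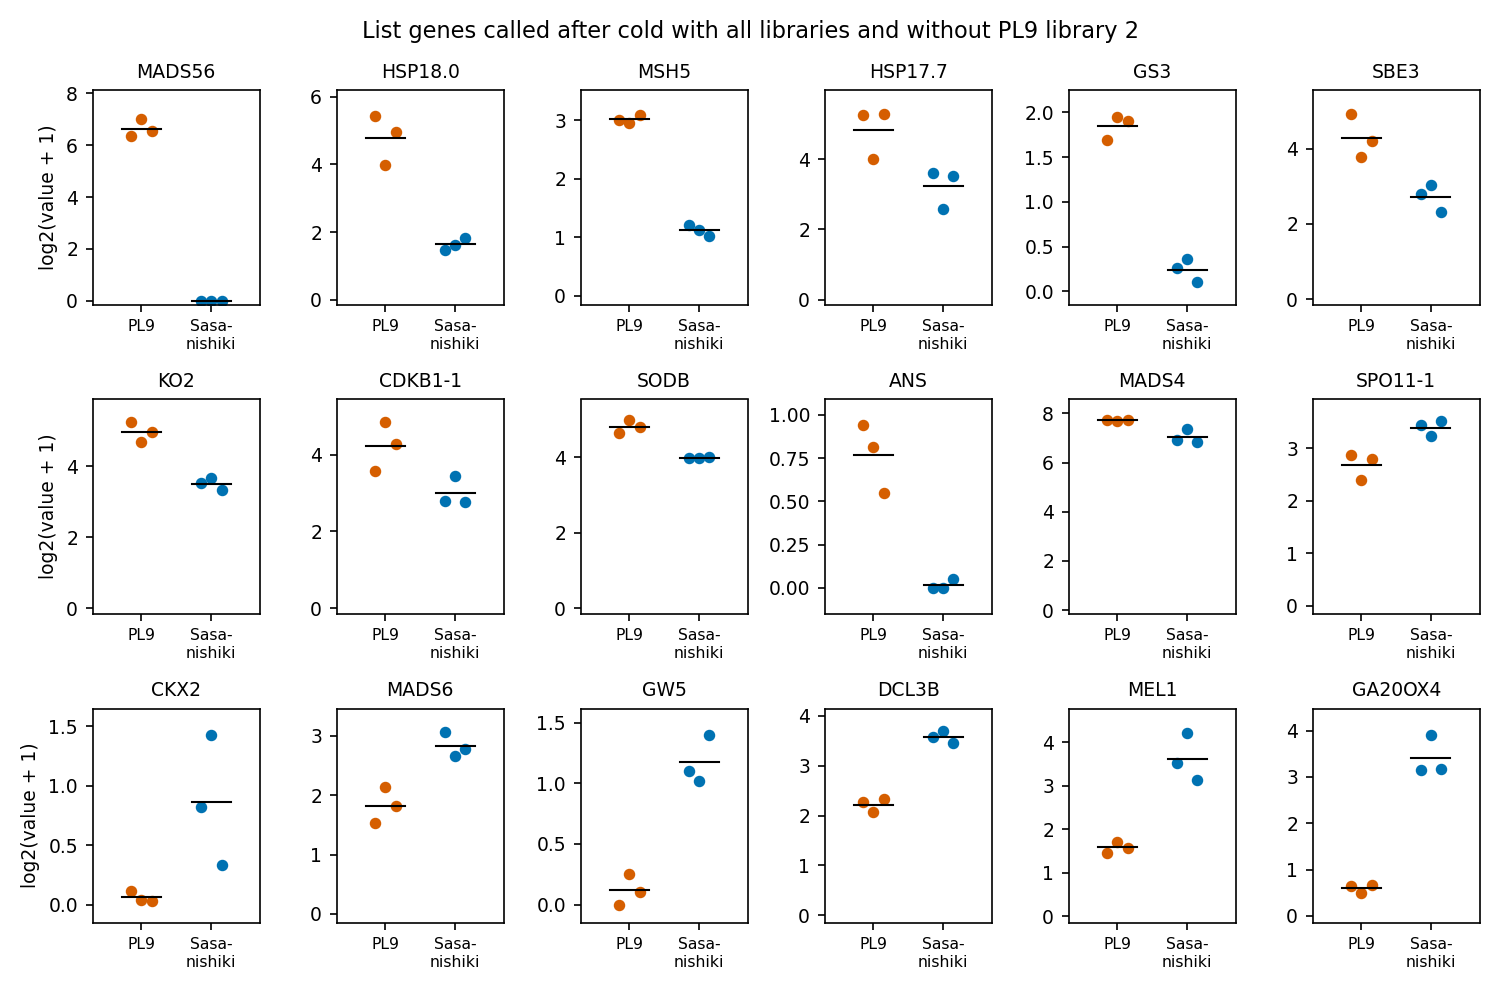
Level in log2(value + 1) of the 18 list genes called after cold in both fits, in the 3 PL9 libraries (left in each panel) and the 3 Sasanishiki libraries (right). Points are libraries in the order 1 to 3 and bars are group means. The groups do not overlap in any panel, which was so at 32.1% of all tested genes.

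MADS-box genes encode transcription factors that set flowering time and the identity of flower organs. MADS56 (Os10g0536100), a flowering-time gene and relative of MADS50, had 79.7, 128 and 91.4 in the PL9 libraries and was listed at 0 in all 3 Sasanishiki libraries. It was at 94.4 to 118 in untreated PL9 and at 0 in untreated Sasanishiki, and averaged 73.9 ± 16.1 in cold Nipponbare and 66.6 ± 7.52 in cold Lambayeque1 (SD, n = 3 each). Sasanishiki was thus the line without a measured level. The difference after cold was 6.63 (limma, SE 0.17, adjusted p = 2.94e-16) and 6.43 without PL9 library 2 (adjusted p = 2.37e-15). Of 12 members of its list, MADS56 and MADS18 were higher, none was lower and 10 were not called. MADS18, a gene of flowering and floral meristems, had 55.9, 95.5 and 52.0 in PL9, against 36.9, 30.5 and 40.8 in Sasanishiki, and lost its call without PL9 library 2 (adjusted p = 0.0818, difference 0.58).

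Among 3 stamen identity genes, MADS4, a B-class gene needed for stamens and lodicules, was higher and the other 2 were not called. It had 213, 204 and 212 in PL9, against 121, 166 and 113 in Sasanishiki, a difference of 0.67 (limma, SE 0.20, adjusted p = 0.0213). Its call was lost without PL9 library 1 or 3, without Sasanishiki library 1 or 3, and in fits of the comparison's libraries alone, with an adjusted p of up to 0.108. MADS16, the B-class gene of the same organs, had 1385 to 1596 in PL9 and 1106 to 1334 in Sasanishiki (limma, adjusted p = 0.32). In the list of 4 carpel and outer floret markers, MADS6, an AGL6-type gene of floret organs, was lower and 3 were not called. MADS6 had 1.88, 3.40 and 2.51 in PL9, against 7.39, 5.32 and 5.87 in Sasanishiki. The difference was -1.01 (limma, SE 0.32, adjusted p = 0.0337), and the call was lost when any cold library other than PL9 library 2 was left out, with an adjusted p of up to 0.128 without Sasanishiki library 1. The part of other flower tissue in this difference was not tested.

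Meiosis precedes the microspore stage, and its tested genes reached at most 17.38 in the 6 libraries. Of 9 members tested, MSH5 was higher in PL9, MEL1 and SPO11-1 were lower, and 6 were not called. MSH5 (Os05g0498300), which stabilises crossover intermediates, had 7.04, 6.80 and 7.52 in PL9, against 1.33, 1.18 and 1.05 in Sasanishiki. All PL9 values lay above all Sasanishiki values, and the difference of 1.89 (limma, SE 0.17, adjusted p = 2.77e-08) was 1.92 without PL9 library 2 (adjusted p = 2.70e-07). It stood at 1.78 in untreated anthers (limma, SE 0.17, adjusted p = 6.96e-08), where PL9 had 10.8 to 14.2 and Sasanishiki 2.89 to 3.05. Nipponbare and Lambayeque1, at 5.54 ± 0.88 and 6.51 ± 1.35 after cold (SD, n = 3 each), lay near PL9.

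MEL1 (Os03g0800200), a germline Argonaute that binds phased small RNAs of the anther, had 1.74, 2.28 and 1.97 in PL9, against 10.4, 17.38 and 7.74 in Sasanishiki. The difference was -2.04 (limma, SE 0.27, adjusted p = 9.60e-06), -2.10 without PL9 library 2 and -1.86 in untreated anthers (adjusted p = 2.94e-05). SPO11-1, which makes the double-strand breaks of meiosis, had 6.29, 4.25 and 5.92 in PL9, against 9.88, 8.38 and 10.45 in Sasanishiki, a difference of -0.71 (limma, SE 0.15, adjusted p = 0.00184). In a fit of the 6 libraries alone its adjusted p was 0.0616, and 0.0802 when PL9 library 2 was also left out. PAIR1, a meiotic chromosome pairing gene, was not called, at 0.60 to 0.64 in PL9 and 0.88 to 1.98 in Sasanishiki.

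The small RNA list, added after some results of these data had been seen, held 5 tested members, of which DCL3B was lower and 4 were not called. DCL3B (Os10g0485600), the Dicer-like enzyme that cuts a class of phased small RNAs in rice anthers, had 3.82, 3.20 and 4.01 in PL9, against 10.9, 11.9 and 9.98 in Sasanishiki. The groups were well apart after cold, with a difference of -1.35 (limma, SE 0.25, adjusted p = 4.47e-04) and -1.28 without PL9 library 2 (adjusted p = 0.00309). In untreated anthers they overlapped, at 6.76 to 8.78 in PL9 and 6.16 to 12.5 in Sasanishiki, and DCL3B was not called there. The test of the response did not pass (-1.25, adjusted p = 0.0893). AGO18, another Argonaute of the anther, had 0.86, 13.8 and 4.91 in PL9, against 8.73, 7.44 and 12.0 in Sasanishiki. It was called lower without PL9 library 2 alone (difference -1.63, limma adjusted p = 0.0188) and not with all libraries (-0.91, adjusted p = 0.287).

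Of 8 gibberellin synthesis genes tested, KO2 was higher, GA20OX4 was lower and 6 were not called. KO2 (Os06g0570100), an ent-kaurene oxidase of an early step, had 37.0, 24.5 and 29.9 in PL9, against 10.6, 11.7 and 9.02 in Sasanishiki. The difference was 1.45 after cold (limma, SE 0.19, adjusted p = 8.97e-06) and 1.68 untreated (adjusted p = 1.27e-06). GA20OX4 (Os05g0421900), a gibberellin 20-oxidase of a late step, had 0.55, 0.41 and 0.59 in PL9, against 7.94, 13.9 and 8.02 in Sasanishiki. The difference was -2.81 (limma, SE 0.31, adjusted p = 6.61e-07) and -2.76 without PL9 library 2 (adjusted p = 7.80e-06). In untreated anthers PL9 had 0.28 to 0.95 and Sasanishiki 1.23 to 2.65, which did not pass (-0.69, adjusted p = 0.121), and the difference in cold response did (-2.12, limma adjusted p = 0.0175). After cold it averaged 0.39 ± 0.02 in Nipponbare and 0.61 ± 0.51 in Lambayeque1 (SD, n = 3 each), so Sasanishiki was the line with the high level.

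The related oxidase GA20OX3 was not called, at 87.0 to 121 in PL9 and 63.1 to 95.2 in Sasanishiki. None of the 7 members of the list for gibberellin inactivation and signalling was called, among them the DELLA repressor SLR1, at 37.6, 95.7 and 53.65 in PL9 and 76.3, 43.1 and 94.5 in Sasanishiki. Of 6 genes of abscisic acid synthesis and breakdown, ABA8OX3 was higher, ABA8OX2 lower and 4 not called, and both calls were lost without PL9 library 2. Both encode enzymes that break abscisic acid down. ABA8OX3 had 8.92, 67.1 and 7.10 in PL9, against 4.17, 1.998 and 3.365 in Sasanishiki (limma adjusted p = 0.0286 with all libraries and 0.193 without PL9 library 2). ABA8OX2 had 93.75, 18.03 and 48.49 in PL9, against 143, 254 and 126 in Sasanishiki (limma adjusted p = 0.00892 and 0.0676). For both the groups did not overlap, and library 2 was the PL9 value farthest from Sasanishiki. None of the 5 phosphatases of the abscisic acid pathway was called. Of 8 SnRK2 kinases, SAPK4 and SAPK8 were higher and 6 not called, and these calls were also lost (adjusted p = 0.0756 and 0.0627), while 2 other members were called lower without that library.

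Small heat shock proteins, chaperones that bind unfolding proteins, held 2 genes higher in PL9 among 8 tested, none lower and 6 not called. HSP18.0 (Os01g0184100) had 42.0, 14.9 and 30.2 in PL9, against 1.75, 2.09 and 2.56 in Sasanishiki, a difference of 3.15 (limma, SE 0.73, adjusted p = 0.00355). HSP17.7 (Os03g0267000) had 37.5, 14.9 and 38.0 in PL9, against 11.2, 5.01 and 10.6 in Sasanishiki, a difference of 1.61 (limma, SE 0.51, adjusted p = 0.0336). PL9 library 2 was the lowest PL9 library for both, yet above every Sasanishiki library. The call of HSP17.7 was lost in 5 other fits, with an adjusted p of up to 0.156 without Sasanishiki library 2. In untreated anthers the lines differed in the same direction, by 2.94 for HSP18.0 (adjusted p = 0.00523) and 3.35 for HSP17.7 (adjusted p = 4.92e-05). The list's median was -0.52, against -0.0005 for all genes, opposite in sign to both calls. Genes of this family are close copies of each other, so reads could be split among them and these values are uncertain.

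A pair of relatives were called in the cold response and not after cold. HSP16.9B had 0, 0.13 and 0.09 in PL9 and 1.48, 1.52 and 1.40 in Sasanishiki after cold, against 0 to 0.19 and 13.7 to 200.2 in untreated anthers of PL9 and Sasanishiki. HSP17.4 had 0.92, 3.31 and 3.47 in PL9 and 3.24, 4.95 and 4.09 in Sasanishiki after cold, against 35.7 to 83.7 in untreated PL9 and 3.64 to 9.86 in untreated Sasanishiki. The differences in response were 4.57 (limma, adjusted p = 0.0187) and -3.64 (adjusted p = 0.0160), and both stood without PL9 library 2 (0.0397 and 0.0238). After cold alone, neither was called with all libraries (adjusted p = 0.269 and 0.532), although HSP16.9B was called in a fit of the 6 libraries alone (adjusted p = 5.83e-04). Of 10 heat shock factors, HSFC2A was higher and 9 were not called. It had 3.31, 2.87 and 2.32 in PL9, against 0.14, 0.30 and 0.18 in Sasanishiki, with a limma adjusted p of 0.0349 that became 0.0761 without PL9 library 2.

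In sugar and starch metabolism, SBE3 was higher among 12 starch synthesis genes and 11 were not called. SBE3 (Os02g0528200), a starch-branching enzyme, had 29.1, 12.7 and 17.4 in PL9, against 5.88, 7.26 and 3.99 in Sasanishiki, a difference of 1.58 (limma, SE 0.33, adjusted p = 0.00139) and 1.84 without PL9 library 2. In untreated anthers its difference of 0.85 did not pass (adjusted p = 0.0685), and neither did the difference in response (0.73, limma adjusted p = 0.514). None of 7 members of the list of sugar transporters with their regulator CSA, of 5 invertases and of 3 trehalose synthesis genes was called. Of 12 antioxidant enzymes, SODB, a plastid iron superoxide dismutase, was higher and 11 were not called. It had 23.8, 30.3 and 26.9 in PL9, against 14.8, 14.6 and 14.9 in Sasanishiki, a difference of 0.82 (limma, SE 0.22, adjusted p = 0.0106). The untreated groups overlapped at 17.5 to 22.0 in PL9 and 13.0 to 22.2 in Sasanishiki. Its difference in response did not pass (0.67, limma adjusted p = 0.316).

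Among 6 phenylpropanoid and flavonoid enzymes, ANS, an anthocyanidin synthase, was higher and 5 were not called. Its levels were under 1 in every library, 0.92, 0.76 and 0.46 in PL9 and 0, 0 and 0.04 in Sasanishiki (difference 0.75, limma adjusted p = 0.00844). Of 4 cell cycle genes, CDKB1-1, a kinase of the step into mitosis, was higher and 3 were not called. It had 10.9, 27.6 and 18.5 in PL9, against 5.89, 9.87 and 5.80 in Sasanishiki, a difference of 1.23 (limma, SE 0.29, adjusted p = 0.00416) that missed the threshold in a fit of the 6 libraries alone (adjusted p = 0.0982, and 0.16 when PL9 library 2 was also left out).

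Genes known from grain and panicle differences among cultivars were also tested, 6 in all. GS3 was higher in PL9, GW5 and CKX2 were lower, and 3 were not called. GS3, a G protein subunit that limits grain length, had 2.22, 2.86 and 2.75 in PL9, against 0.20, 0.29 and 0.07 in Sasanishiki (difference 1.60, limma adjusted p = 2.01e-05), with 2.07 in untreated anthers. GW5, which limits grain width, had 0, 0.19 and 0.08 in PL9, against 1.14, 1.03 and 1.64 in Sasanishiki (difference -1.05, limma adjusted p = 2.79e-04). CKX2, a cytokinin oxidase tied to grain number, had 0.09, 0.03 and 0.02 in PL9, against 0.77, 1.69 and 0.26 in Sasanishiki (difference -0.80, limma adjusted p = 0.00774). These are low levels in anthers, and the call of CKX2 was lost without Sasanishiki library 2 (adjusted p = 0.0602) and in the fit of the 6 libraries alone (0.134, and 0.22 when PL9 library 2 was also left out).

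Pollen wall and tapetum genes gave no call with all libraries, and the 3 PL9 libraries spread widely around the Sasanishiki values. PKS2, a polyketide synthase of sporopollenin, had 0.04, 844 and 0.50 in PL9 libraries 1, 2 and 3, against 73.7, 45.9 and 136 in Sasanishiki. CYP703A3, a fatty acid hydroxylase of sporopollenin, had 0.42, 1405 and 226 in PL9, against 424, 360 and 467 in Sasanishiki. ACOS12, an acyl-CoA synthetase of the same pathway, had 3.88, 4928 and 1095 in PL9, against 1389, 813 and 1885 in Sasanishiki. In each of them PL9 library 2 was the highest of the 6 and PL9 library 1 the lowest. Over the 8 sporopollenin genes PL9 library 2 was the highest at 7 and PL9 library 1 the lowest at 7. These libraries were also extreme over all tested genes, highest by at least 2-fold at 880 for PL9 library 2 and lowest at 429 for PL9 library 1. The share of all genes without that margin was not counted, so the rank counts here and in the lists below have no background beside them. The summed level of the 8 sporopollenin genes was 607, 22464 and 7853 in PL9, against 6440, 4199 and 8828 in Sasanishiki. With all libraries 0 of 8 were called, and the list's median was -0.98, against -0.0005 for all genes. Without PL9 library 2, PKS2, CYP703A3 and ACOS12 were lower in PL9 by log2 differences of -5.97, -4.53 and -4.14 (limma, adjusted p = 2.41e-06, 0.0168 and 0.0466), 5 were not called and the median was -2.37. Of the PL9 libraries left in that fit, library 1 lay farther from Sasanishiki. The list's median difference from the Sasanishiki mean was -4.84 in library 1 and -0.27 in library 3. At ACOS12 library 3 lay within the Sasanishiki values, while PKS2 was low in both libraries. Names of this list other than CYP703A3 are not in the reference table.

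PL9 library 2 was the highest of the 6 at 4 of 6 tapetum products and 3 of 6 tapetum regulators, and PL9 library 1 the lowest at 4 and 3. AP25, an aspartic protease of tapetal cell death, had 4.61, 1607 and 390 in PL9, against 507, 454 and 1321 in Sasanishiki. PTC1, a regulator of tapetal cell death, had 0.21, 51.0 and 3.17 in PL9, against 7.19, 8.87 and 20.6 in Sasanishiki. Without PL9 library 2 both were called lower, by -3.85 and -2.42 (limma, adjusted p = 0.0338 and 0.0119), as was AP37 (-2.80, adjusted p = 0.0474). Over the tapetum products the median difference from the Sasanishiki mean was -3.03 in PL9 library 1 and -0.02 in PL9 library 3. Over the tapetum regulators it was -0.35 and -0.19. With all libraries 0 of 6 tapetum products and 0 of 6 tapetum regulators were called. The lipid transfer protein gene OsC6 was high in every library, at 22080 to 32750 in PL9 and 19551 to 33499 in Sasanishiki. The tapetum transcription factor gene EAT1 had 104, 349 and 171 in PL9, against 198, 197 and 217 in Sasanishiki. The regulators API5, TIP2 and UDT1 were not called in either fit.

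**Figure D4:**
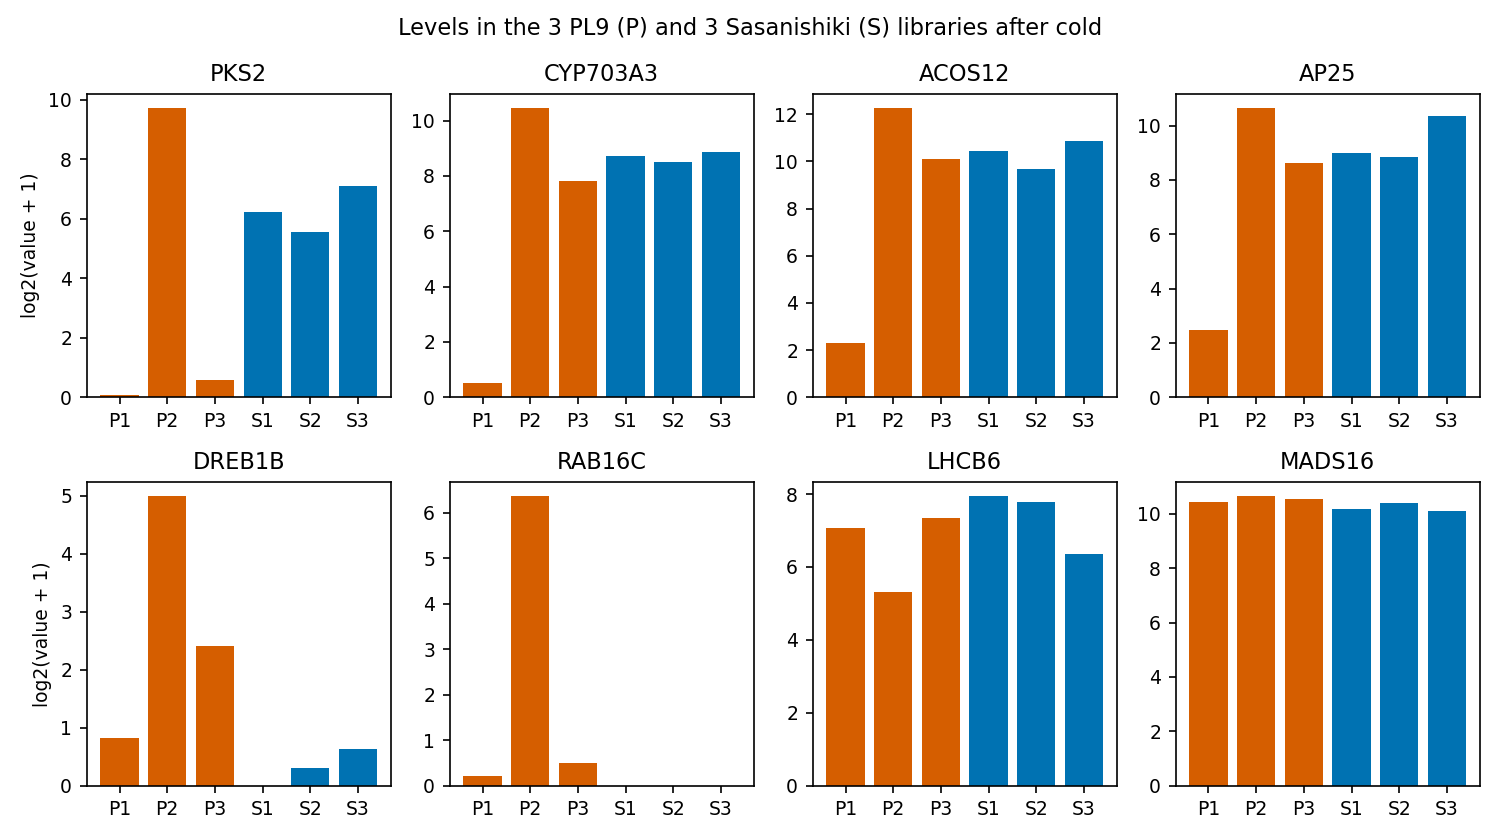
Level in log2(value + 1) of 8 genes in PL9 libraries 1 to 3 (P1 to P3, left in each panel) and Sasanishiki libraries 1 to 3 (S1 to S3, right) after cold. Bars are single libraries. PKS2, CYP703A3, ACOS12 and AP25 were lowest in P1 and highest in P2, DREB1B and RAB16C were highest in P2, LHCB6 was lowest in P2, and the stamen gene MADS16 lay between 1106 and 1596 in all 6.

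PL9 library 2 stood apart in other gene groups too. The 9 tested genes of light harvesting and photosynthesis, which mark green tissue, were all lowest of the 6 libraries in PL9 library 2, with a summed level of 1101, 320 and 1298 in PL9 and 1459, 1233 and 524 in Sasanishiki. None of the 9 was called with all libraries. The chlorophyll synthesis gene PORA had 190, 7.22 and 157 in PL9, against 67.1, 52.4 and 19.7 in Sasanishiki, and was called higher without PL9 library 2 (2.04, limma adjusted p = 0.0295). The 6 DREB1 genes, cold-induced transcription factors, were all highest in PL9 library 2. DREB1B had 0.77, 30.7 and 4.34 in PL9, against 0, 0.23 and 0.55 in Sasanishiki, a difference of 2.43 (limma, adjusted p = 0.0207) that became 1.31 without that library (adjusted p = 0.138). DREB1C had 0, 14.1 and 0.26 in PL9, against 0.09, 0.10 and 0.40 in Sasanishiki.

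Dehydrins and related proteins, which protect drying cells, showed the same order. RAB16A had 0, 224 and 0.10 in PL9, against 0, 0 and 0.67 in Sasanishiki, and RAB16C had 0.15, 80.7 and 0.41 in PL9 and 0 in every Sasanishiki library. Library 2 was the highest of the 6 at 6 of the 7 members, none of which was called with all libraries, and the median of the list was 1.28 with all libraries and -0.07 without PL9 library 2. WRKY53 and the aquaporin gene PIP2-4 were called higher with all libraries and lost without it (adjusted p = 0.259 and 0.146). NAC4, a stress NAC factor, had 6.58, 11.1 and 9.21 in PL9, against 2.67, 0.77 and 2.97 in Sasanishiki, and its limma adjusted p of 0.0162 became 0.0608. TIFY9, a jasmonate repressor, and TMS5, a ribonuclease of thermosensitive male sterility, were called lower with all libraries and lost likewise (adjusted p = 0.206 and 0.176). In all, 12 list members lost their call without PL9 library 2, 9 higher and 3 lower, and 16 others gained it. Of the 43 lists, 22 had no member called with all libraries, among them jasmonate synthesis, invertases, defence genes and other cold and stress regulators.

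The lines were also compared in how they responded to cold. The test of this response, PL9 cold minus untreated against Sasanishiki cold minus untreated, called 329 genes (1.46%), 165 higher (0.733%) and 164 lower (0.729%) in PL9. Without PL9 library 2 it called 251 genes (1.12%), 109 higher (0.485%) and 142 lower (0.631%), and 200 genes were called in both. Of the listed genes 8 were called, and GA20OX4, HSP16.9B and HSP17.4 in both fits. NAC4, called higher in PL9 after cold and lower untreated (-1.39, limma adjusted p = 0.0460), was called in the response with all libraries (3.12, adjusted p = 0.0271) and lost without PL9 library 2 (0.0623). The count ranged from 159 to 972 when a library was left out, 972 without Sasanishiki control library 3 and 159 without PL9 control library 1, and was 70 with the 4 groups fitted alone and 2254 with library weights. At an unadjusted p under 0.05 there were 3341 genes, and the median standard error was 0.36, against 0.25 in the comparison after cold, so genes not called are not shown to respond alike. Of the 22495 tested genes, a narrower set of 53 was called after cold and in the response in both fits, and not called untreated. Their differences after cold and in the response also had the same sign, as the choice required. Of these, 12 were higher in PL9 and 41 lower, and 38 of the 53 stayed called in the response when each of the 12 libraries was left out in turn. Of the 53, the 4 with the largest difference after cold in each direction are given next, and they were chosen after their values were seen. Ranked by the response difference, other genes would be among them.

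Os02g0202400 had 0.03, 0 and 0 in PL9, against 13.67, 17.36 and 9.59 in Sasanishiki after cold. Untreated it was at 0 in PL9 and at most 0.27 in Sasanishiki, so the level in cold Sasanishiki stood alone. The difference in response was -3.60 (limma, SE 0.21, adjusted p = 9.94e-09). Os12g0604500 had 0.15, 0.72 and 0.32 in PL9, against 23.1, 11.9 and 41.1 in Sasanishiki, with a response difference of -3.56 (limma adjusted p = 1.77e-04). Os07g0517467 had 0.37, 0 and 0 in PL9, against 18.4, 20.4 and 20.8 in Sasanishiki, with a response difference of -3.45 (limma adjusted p = 0.00136). Os02g0475101 was listed at 0 in PL9 and had 7.95, 5.05 and 13.2 in Sasanishiki, with a response difference of -2.53 (limma adjusted p = 0.00882). After cold the highest mean of these 4 in the other lines was that of Os07g0517467 in Lambayeque1, 2.003 ± 1.46 (SD, n = 3), so Sasanishiki was again the line apart.

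In the other direction, Os01g0124200 had 83.8, 67.1 and 52.8 in PL9, against 1.95, 1.17 and 2.15 in Sasanishiki after cold. Untreated it overlapped, at 36.2 to 40.4 in PL9 and 10.8 to 107.8 in Sasanishiki, and the response difference was 4.18 (limma, SE 0.77, adjusted p = 0.00871). Os08g0375500 had 8.26, 96.7 and 48.4 in PL9, against 0.13, 0 and 0 in Sasanishiki (response 3.98, limma adjusted p = 0.0127). Os01g0146600 had 2.41, 25.2 and 14.6 in PL9, against 0.19, 0 and 0 in Sasanishiki (response 3.85, limma adjusted p = 0.0134). Os01g0207700 had 7.36, 13.4 and 7.93 in PL9, against 0.26, 0.19 and 0.19 in Sasanishiki (response 2.66, limma adjusted p = 0.00690). Near GA20OX4 in identifier order, Os05g0421000 and Os05g0420900 were also among the 53. Os05g0421000 had 1.63, 3.62 and 2.78 in PL9, against 8.52, 11.3 and 9.52 in Sasanishiki, and Os05g0420900 had 1.38, 2.20 and 1.84 in PL9, against 3.61, 3.47 and 5.51 in Sasanishiki. After cold, Nipponbare and Lambayeque1 averaged 5.20 ± 1.48 and 6.04 ± 1.78 at Os05g0421000 (SD, n = 3 each). At Os05g0420900 they averaged 3.14 ± 0.50 and 3.37 ± 0.58 (SD, n = 3 each). These means lay between those of PL9 and Sasanishiki, unlike at GA20OX4, where both lines were near PL9.

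Os03g0111300, another of the largest differences without a name, was measured in both lines, with 57.7, 1.54 and 19.2 in PL9 against 1621, 7515 and 947 in Sasanishiki. Its difference was -7.29 (limma, SE 1.12, adjusted p = 5.20e-05) and -6.04 without PL9 library 2 (adjusted p = 4.45e-04). Untreated it overlapped, at 60.4 to 138 in PL9 and 119 to 1063 in Sasanishiki. The difference in response did not pass (-5.67, limma adjusted p = 0.0824, and 0.176 without PL9 library 2), so no difference between the treatments was shown.

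The chromosomes differed in the share of genes called after cold. The share was highest on chromosome 11, with 366 of 1334 genes (27.4%), and next on chromosome 12, with 304 of 1299 (23.4%). It was lowest on chromosome 2, with 355 of 2561 (13.9%). Of genes called in both fits and at least 2-fold, the share was 16.9% on chromosome 11 and 14.5% on chromosome 12, and it was lowest on chromosome 3 at 7.41%. Untreated, the share was also highest on chromosome 11 (32.8%) and next on chromosome 12 (29.0%), and the lowest was that of chromosome 3 (19.4%), beside 20.2% on chromosome 2. Along the identifier order, in 443 windows of 50 tested genes, a window held between 0 and 19 genes that were called in both fits and at least 2-fold, with a median of 5. The window from Os12g0240900 to Os12g0267950 held 19, with 9 genes near 0 in Sasanishiki and measured in PL9. The window from Os08g0232100 to Os08g0248100 held 17, with 8 such genes. These are descriptions of neighbouring genes, which are not independent.

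**Figure D5:**
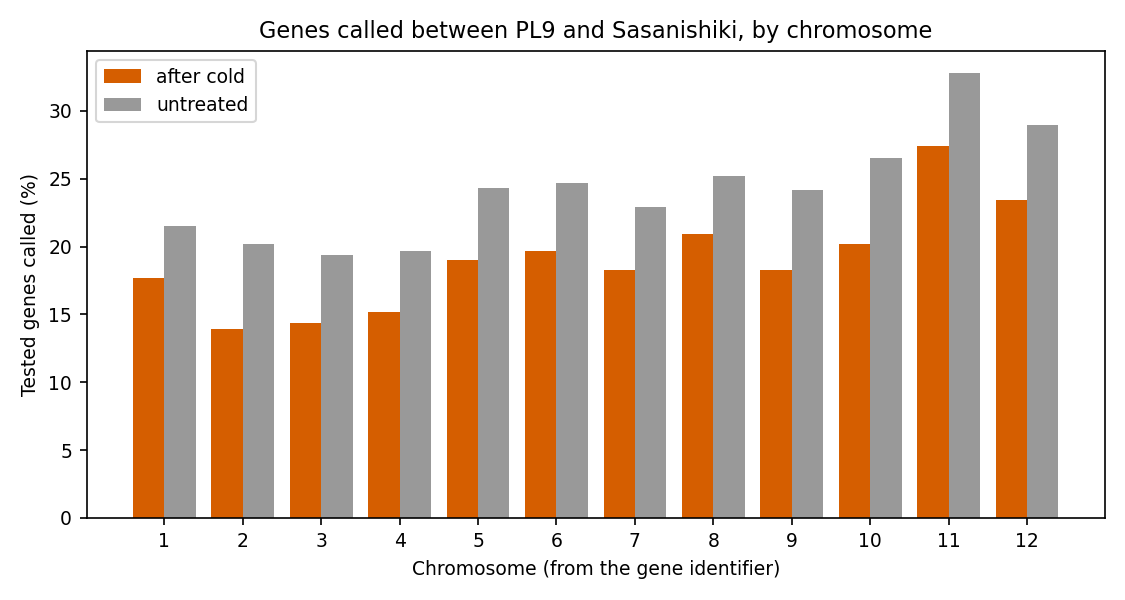
Percent of tested genes called between PL9 and Sasanishiki on each of the 12 chromosomes, after cold (left bar) and untreated (right bar). After cold the share ran between 13.9% on chromosome 2 and 27.4% on chromosome 11.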

How the data were processed

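The deposited files give an abundance signal per row, headed TPM per the file headers. Their column totals differ between libraries, so they were used as a signal on the authors' scale. The submitters' processing notes name kallisto 0.46.2, sleuth 0.30.0 and the build IRGSP-1.0. The strand setting of the counting is not given in the sources used here. The labels name a directional library kit and total RNA. Each file has 44785 rows. The 5399 identifiers on several rows mix values of several libraries within a row and were left out.

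Testing kept genes that reached 1 in 3 or more libraries. On log2(value + 1), limma 3.58.1 under R 4.3.3 estimated 8 group means from the 24 libraries (lmFit, then eBayes using the trend option), with Benjamini-Hochberg adjustment over 22495 genes and a threshold of 0.05. Comparisons were PL9 minus Sasanishiki after cold, untreated, and the difference of these. Alternatives covered the pseudocount, filter, scaling, library weights, repeated rows, a replicate block and leaving out each library. The fit was tested on simulated data. Tables were made with Python 3.11.15 and pandas 2.3.3.

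The members and lists were chosen with earlier results of these data known. The lists of small RNA, other anther fertility, brassinosteroid and strigolactone, panicle and grain architecture, light signalling, nutrient transport and reference genes were added after the files had been opened and some results seen. Genes named are list members called in both fits, the largest differences without a name, up to 4 genes of the response test, genes near 0 in a line, and up to 2 examples a list. Genes whose call or level turned on PL9 cold library 2, and the examples from the 53 response genes, were chosen after their values were seen. List names came from general knowledge and were checked by chromosome and gene order (within 2%) against the RefSeq table of assembly ASM3414082v1. Of 471 entries, 318 agreed, 137 had names not in the table and were kept, and 16 were dropped. No coordinates or sequences are given, since no genome of the files' build was used here.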

Additional observations from a re-analysis of the deposited data

Results flagged for a closer look

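The test of the difference in cold response singled out 329 genes, and the genes named in the text are given here. GA20OX4 had a response lower in PL9 by a log2 difference of -2.12, and its neighbours in identifier order Os05g0421000 and Os05g0420900 had -2.60 and -1.02. HSP16.9B had 4.57 and HSP17.4 had -3.64, with untreated levels that differed between the lines and cold levels that were low in both. In PL9, HSP16.9B was at most 0.19 in either treatment. Its Sasanishiki level averaged 93.0 ± 96.4 untreated and 1.47 ± 0.06 after cold (SD, n = 3 each). The unnamed genes with a response higher in PL9 were Os01g0124200 at 4.18, Os08g0375500 at 3.98, Os01g0146600 at 3.85 and Os01g0207700 at 2.66. Those with a response lower in PL9 were Os02g0202400 at -3.60, Os12g0604500 at -3.56, Os07g0517467 at -3.45 and Os02g0475101 at -2.53. Os05g0420900 lost the response call in 7 of 12 fits that left out a library, GA20OX4 in 1, and the other unnamed genes in none.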

How the results depend on the processing

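The 4103 calls after cold became 10277 with library weights and 7279 with repeated rows summed, and 3277 to 4117 when a library was left out. At least 2-fold they were 1233 with pseudocount 5, against 2648, and 2441 to 2930 when a library was left out. Untreated calls were 3369 with the libraries of the comparison alone, 8790 with repeated rows summed and 3892 to 6101 when a library was left out, against 5241. Response calls were 189 with the stricter filter, 70 with the libraries alone, 2254 with library weights, 1516 with repeated rows summed and 159 to 972 when a library was left out, against 329. Calls shared by both treatments were 4093 with library weights and 4853 with repeated rows summed, and 2316 to 2644 when a library was left out, against 2655. List members called were 98 with library weights and 19 to 34 when a library was left out, against 30. Of 28 named genes called, 5 were lost and 1 gained with the libraries alone, and 25 to 28 were called when a library was left out. The 481 genes near 0 in a line were 253 under stricter limits, chosen after seeing the data. No named gene changed sign. Summed rows mix libraries by their construction. The weights, gene by gene after the default method did not converge, reached 5.46 for PL9 cold library 3, and the cause was not tested. For the other moves the cause was not tested, beyond the fewer genes or samples of the setting itself. Same-numbered PL9 and Sasanishiki cold libraries deviated against each other (r = -0.137, -0.348 and -0.11). With 3 libraries a group and no differently numbered pairs computed, these values cannot exclude pairing or a shared batch. The replicate block gave 3975 calls after cold, 5036 untreated and 252 in the response. Depth is unknown and limits the low genes.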
